A study of Mus musculus with 8 samples.

Results

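Plexins are the cell surface receptors of semaphorins, a family of guidance cues that steer axons, vessels and migrating cells. They span the membrane once, bind ligands through an extracellular sema domain, and carry a GTPase-activating domain inside the cell that lowers the activity of Ras-related GTPases and loosens adhesion. Most secreted class 3 semaphorins reach class A plexins through the co-receptors neuropilin 1 and neuropilin 2, whereas membrane-bound semaphorins bind plexins directly. In vessels, plexin D1 is known for patterning blood vessels, and plexin A1 for its part in lymphatic valve formation.

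The 9 plexin genes of the mouse were read here in sorted endothelial cells of the colon. Members were defined by gene name and not by a cut on values, with earlier results of these data known. They were every probe set of the array whose annotation gives exactly 1 gene. That gene had to be Plxna1, Plxna2, Plxna3, Plxna4, Plxnb1, Plxnb2, Plxnb3, Plxnc1 or Plxnd1. This gave 22 of the 45101 probe sets. Plxnb2 and Plxnd1 had 1 probe set each, Plxna2 had 4, Plxnc1 had 6 and the other 5 genes had 2 each.

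The samples were lymphatic endothelial cells (LEC, which line lymph vessels) and blood vascular endothelial cells (BEC), sorted by flow cytometry from the colon of healthy, untreated C57BL/6J mice aged 8 weeks. Each of 4 mice, 3 female and 1 male (mouse 4), gave 1 LEC array and 1 BEC array, so there were 4 arrays per cell type and replicate numbers name the mouse. Cells were stained for CD31, podoplanin and CD45.2, and the sources used here give no gates. All values are log2 signals as deposited, and a difference (logFC) is the LEC value less the BEC value of such signals.

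The labels were checked against defining markers. Of 7 tested lymphatic markers, 7 rose and 0 fell in LEC, and of 9 blood endothelial markers, 0 rose and 8 fell. Over all genes, 1.76% rose and 2.31% fell. Pdpn of the lymphatic list encodes podoplanin, a stain of the sort, so it is no independent check. Nrp1 and Sema3g of the blood list return below as genes that act with plexins. All 8 markers common to endothelium lay above background on every array, but 2 were called lower in LEC, Esam and Cdh5 (logFC -3.55 and -1.18). Pecam1 of that list encodes CD31, also a stain of the sort, so it is no independent check either. The log2 sum of the 8 ran from 13.49 to 14.01 in LEC and from 14.31 to 14.89 in BEC. Epithelial, fibroblast and pericyte transcripts were present too, at levels that differed between arrays. The log2 of the summed epithelial markers (14 genes, none called) was 8.67, 10.79, 13.42 and 10.03 in LEC of mice 1 to 4 and 9.38, 9.73, 14.58 and 12.64 in BEC. Summed fibroblast markers (8 genes, 1 of 7 tested higher in LEC) ran from 8.76 to 13.23 in LEC and from 7.86 to 8.60 in BEC. Summed pericyte and smooth muscle markers (8 genes, 1 of 5 tested lower in LEC) ran from 6.98 to 8.20 in LEC and from 9.70 to 10.57 in BEC, and Cnn1, Des and Cspg4 of that list did not pass the filter. LEC replicate 1 correlated least with its own group (median Spearman rho across probe sets 0.601, where the other 7 arrays had 0.696 to 0.763).

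Control probe sets for bacterial transcripts gave each array its own background level, between 3.43 and 4.88. Of the 22 plexin probe sets, 5 were above it on all 8 arrays: the 4 of Plxna2 and the 1 of Plxnd1. A further 13 were above it on some arrays and 4 on none. An array had 8 to 14 plexin probe sets above background. A value below background does not show that the transcript is absent. Probe sets differ in how well they bind, so their levels were not set against each other.

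**Figure D1:**
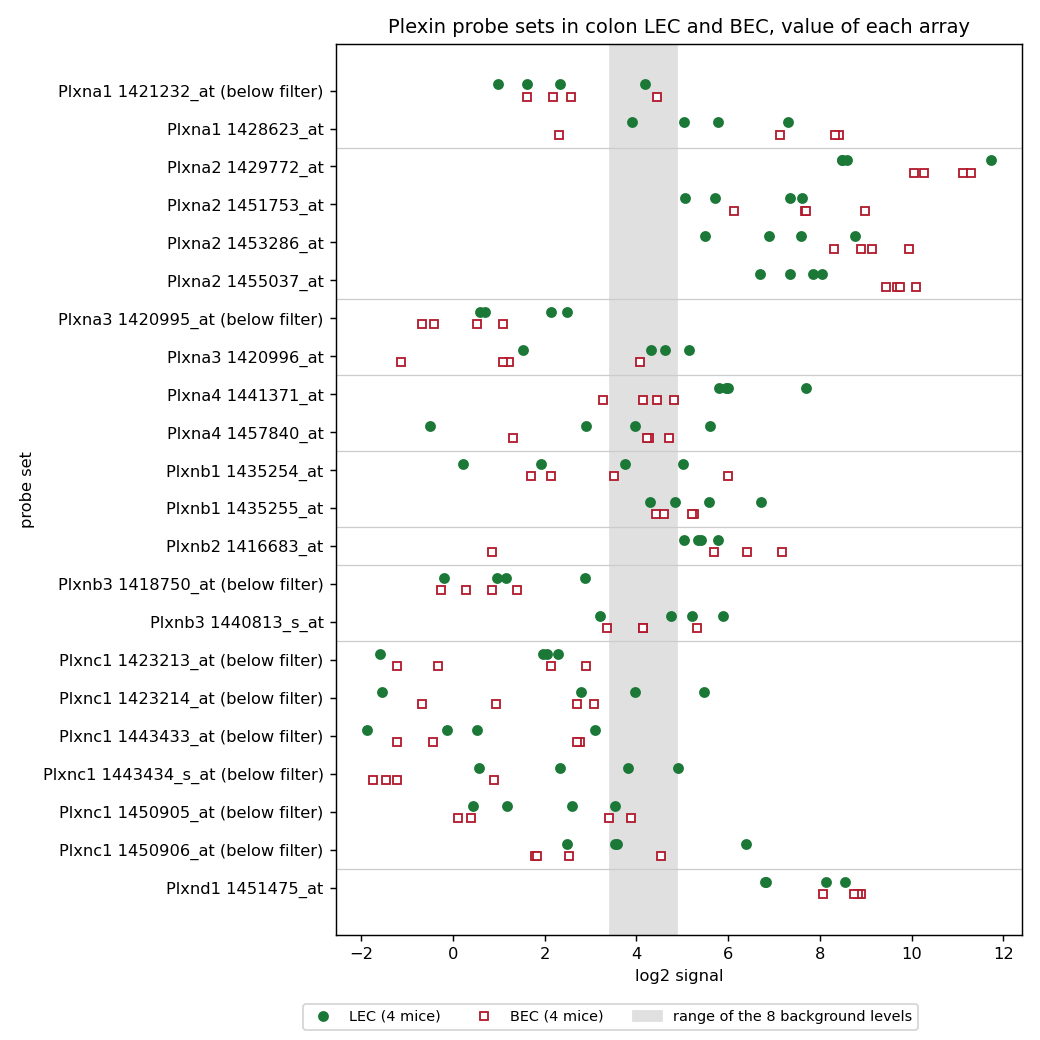
Log2 signal (horizontal axis) of each of the 22 plexin probe sets (rows), with 1 filled circle per LEC array and 1 open square per BEC array (4 mice each) and a grey band for the range of the 8 background levels, 3.43 to 4.88. The 4 rows of Plxna2 and the row of Plxnd1 lie to the right of the band on all 8 arrays, and the 6 rows of Plxnc1 lie mostly within it or to its left.

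The comparison asks which plexins differ between lymphatic and blood endothelium of the same organ. At the gene level, where the probe set with the highest mean stood for the gene, 8 of the 9 plexins passed the filter on low values (Plxnc1 did not) and 0 of these 8 were called by limma at an adjusted p under 0.05. The share called over all 13259 genes was 4.07%. At an unadjusted p under 0.05 there was 1 plexin gene, Plxna4, where 14.4% of all genes passed. Over single probe sets, 13 of the 22 plexin probe sets passed the filter. Of these, 0 rose and 1 fell in LEC, beside 1.47% and 1.84% of the 28838 probe sets tested (3.31% in either direction). With so few members, 1 call of 13 is too small a count to be read against that share. The groups did not overlap at 2 of the 13 (9.22% of all probe sets tested), with 1 higher in LEC (4.72% of all) and 1 lower (4.51% of all). The estimate was above 0 at 5 and below 0 at 8 of the 13. The median logFC was -0.64 over these 13 and 0.11 over all probe sets, but the 13 belong to only 8 genes, and over the 8 genes the median was 0.43 (0.08 over all genes).

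**Figure D2:**
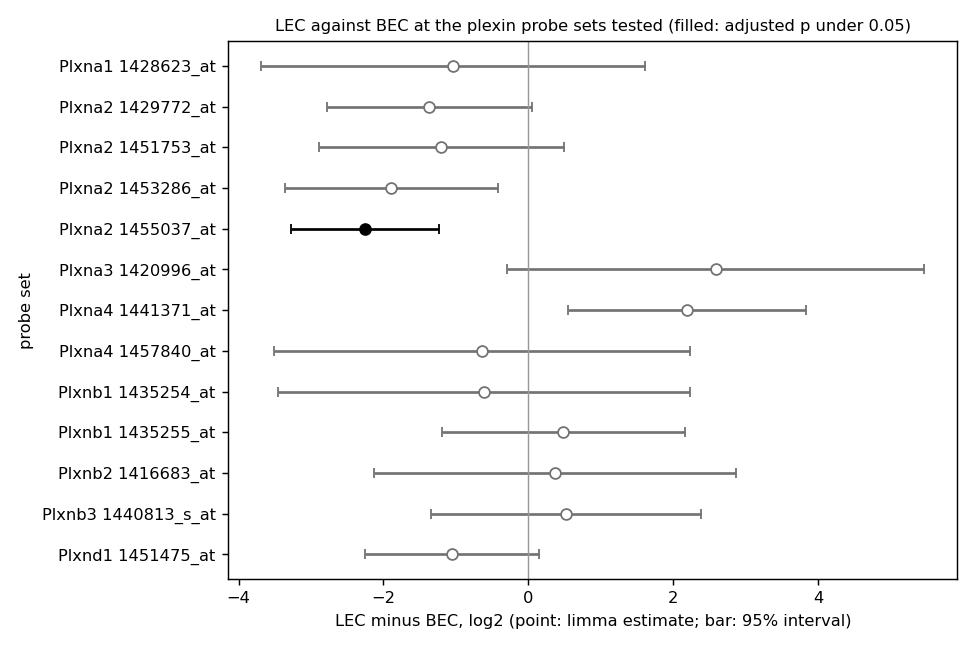
Log2 difference, LEC minus BEC (horizontal axis), at the 13 plexin probe sets tested (rows), as limma's estimate (point) with its 95% interval (bar). The filled point, Plxna2 1455037_at, is the only one with an adjusted p under 0.05, and the 4 points of Plxna2 all lie left of 0.

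Plxna2, whose product plexin A2 is a receptor of semaphorin 6A and, with neuropilins, of class 3 semaphorins, was lower in LEC at 1 of its 4 probe sets. At 1455037_at its log2 signal was 7.34, 8.04, 6.71 and 7.86 in LEC of mice 1 to 4, against 9.68, 10.09, 9.75 and 9.44 in BEC. All 4 LEC arrays lay below all 4 BEC arrays. The means were 7.49 ± 0.60 in LEC and 9.74 ± 0.27 in BEC (SD, n = 4 each), a 4.77-fold lower signal in LEC (logFC -2.25 ± 0.48, SE; limma, adjusted p = 0.0161), and LEC was lower in 4 of 4 mice. The call was lost without BEC replicate 2 (limma, adjusted p = 0.0773), without BEC replicate 3 (0.0555) and without an intensity trend in the fit (0.0730). It was also lost without both arrays of the male mouse (0.0747) and without the 3 arrays bright in epithelial markers (0.263), settings chosen after seeing the data. The differences of the 4 mice were -2.34, -2.05, -3.04 and -1.58. These are bulk samples, in which fewer cells of a type and less RNA per cell cannot be told apart.

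The other Plxna2 probe sets also had estimates below 0, and none of them was called. At 1453286_at the signal was 6.89, 8.77, 5.49 and 7.59 in LEC, against 8.31, 8.91, 9.14 and 9.94 in BEC (logFC -1.89 ± 0.68, limma, adjusted p = 0.213). The groups overlapped there only through LEC of mouse 2, and LEC was lower in 4 of 4 mice. At 1451753_at it was 5.71, 7.36, 5.05 and 7.60 in LEC, against 6.14, 8.99, 7.68 and 7.70 in BEC (logFC -1.20 ± 0.78, limma, adjusted p = 0.578), again lower in LEC in 4 of 4 mice.

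The 4th probe set, 1429772_at, stood for the gene in the gene-level fit because its mean was highest. It had 11.74, 8.48, 8.58 and 8.48 in LEC, against 10.28, 11.13, 10.05 and 11.30 in BEC. The LEC array of mouse 1 lay above every BEC array, and the other 3 LEC arrays lay below all of them. The gene-level logFC was -1.37 ± 0.66 (limma, adjusted p = 0.373), and without LEC replicate 1 it was -2.17 (limma, adjusted p = 0.0109). LEC replicate 1 did not stand apart in this way at the other 3 probe sets. The 4 probe sets measure 1 gene in the same 8 arrays, so they are not independent evidence of each other. Of the 5 tested pericyte and smooth muscle markers, 1 was called, the pericyte gene Rgs5 (logFC -6.07 ± 1.17, limma, adjusted p = 0.00849). Acta2, Tagln and Myh11 had logFC values of -2.15, -2.29 and -1.10 and Pdgfrb had 1.81, and none of these 4 passed the test. The part of such RNA in the Plxna2 difference was not tested.

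**Figure D3:**
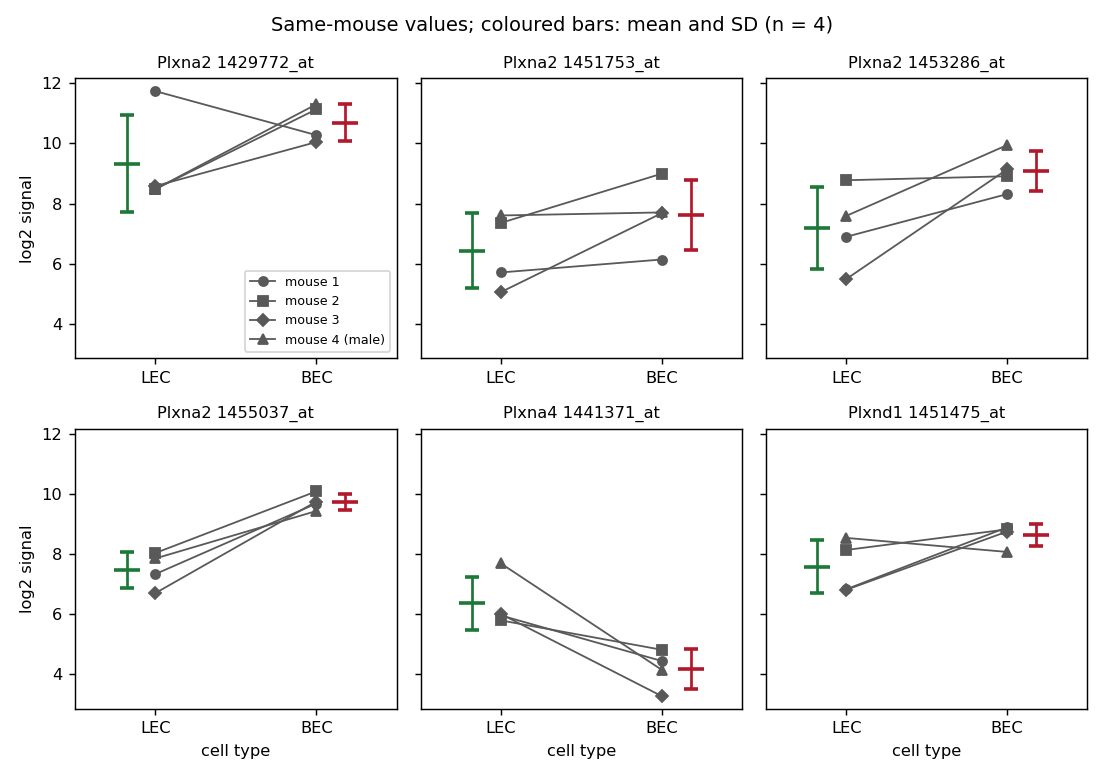
Log2 signal (vertical axis) in LEC and BEC of the same mouse (joined points, 4 mice) at the 4 probe sets of Plxna2, at Plxna4 1441371_at and at Plxnd1 1451475_at, with coloured bars for the mean and SD of each cell type. All 4 lines run upwards from LEC to BEC at Plxna2 1455037_at and downwards at Plxna4 1441371_at, and at Plxna2 1429772_at LEC of mouse 1 (11.74) is apart from the other LEC arrays.

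Plxnd1, the plexin best known in endothelium and the receptor of semaphorin 3E, was above background on all 8 arrays. Its single probe set, 1451475_at, had 6.83, 8.14, 6.82 and 8.54 in LEC, against 8.89, 8.83, 8.75 and 8.07 in BEC. LEC was lower in 3 of 4 mice, and higher in mouse 4, the male. The groups overlapped through BEC of mouse 4, which lay below LEC of mice 2 and 4. The means were 7.58 ± 0.89 in LEC and 8.64 ± 0.38 in BEC (SD, n = 4 each; logFC -1.05 ± 0.56, limma, adjusted p = 0.432 at the gene level). The 95% interval of the difference, -2.26 to 0.15, holds a 2-fold difference as well as none.

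Plxna2 and Plxnd1 are the members above background throughout, and the sequence before their start sites is shown for that reason, as RefSeq gives it for GRCm38.p6. Each window holds 250 bases before the annotated start of the gene and 50 after it, on the gene's strand, and capitals mark the GC box GGGCGG or its reverse complement CCGCCC. Plxna2 lies on the plus strand (chr1:194619579-194619878) and Plxnd1 on the minus strand (chr6:115994956-115995255).
Plxna2: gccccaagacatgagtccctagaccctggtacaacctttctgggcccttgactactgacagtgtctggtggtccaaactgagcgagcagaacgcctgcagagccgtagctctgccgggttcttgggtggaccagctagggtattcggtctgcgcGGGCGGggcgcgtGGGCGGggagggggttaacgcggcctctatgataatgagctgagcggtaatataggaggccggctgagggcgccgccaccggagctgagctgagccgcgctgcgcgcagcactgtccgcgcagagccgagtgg
Plxnd1: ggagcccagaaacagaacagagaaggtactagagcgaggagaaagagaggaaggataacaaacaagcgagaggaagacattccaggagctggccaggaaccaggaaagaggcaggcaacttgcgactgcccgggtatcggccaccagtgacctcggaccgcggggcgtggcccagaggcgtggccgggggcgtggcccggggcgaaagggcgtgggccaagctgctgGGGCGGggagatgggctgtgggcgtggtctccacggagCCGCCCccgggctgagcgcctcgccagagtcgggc

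Each window held 2 GC boxes, a motif found on either strand in 35.7% of the 32851 windows of this length in the table. Their GC content was 64.7% for Plxna2 and 67.0% for Plxnd1, beside a median of 52.7%. Neither window held the extended ETS motif CCGGAAG (in 8.86% of windows), the E-box CACGTG (7.15%) or TATAAA (13.6%), each searched on both strands. The shorter GGAA, the core of ETS sites, was not searched. A match is a description of letters only, and no match says only that these letters are not in the window. Of the 9 plexin genes, 7 have a window in the table.

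Plxna4, a receptor of semaphorin 6A and, with neuropilin 1, of semaphorin 3A, had the smallest gene-level p of the plexins. At 1441371_at its log2 signal was 5.96, 5.80, 6.01 and 7.69 in LEC, against 4.45, 4.82, 3.28 and 4.15 in BEC. All 4 LEC arrays lay above all 4 BEC arrays and above background, and 2 of the 4 BEC arrays were below background. The fitted logFC was 2.19 ± 0.75 (limma, adjusted p = 0.154 at the gene level, unadjusted p = 0.0115), so the difference did not pass the test. With values raised to background the mean difference was 2.14, or 4.39-fold, for this probe set. It was not called under that setting either (limma, adjusted p = 0.130 at the gene level). The other Plxna4 probe set, 1457840_at, went the other way without being called. It had 2.90, 5.61, -0.51 and 3.97 in LEC, against 4.28, 4.70, 1.30 and 4.22 in BEC (logFC -0.64 ± 1.34, limma, adjusted p = 0.901), with 3 of the 8 arrays above background. The 2 probe sets of Plxna4 disagree in sign as deposited. With values raised to background the second had a logFC of 0.36, which gives it no direction. Background differed between arrays, and a probe set below it on all 8 arrays gets 0.56 under that setting.

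Plxna1, which pairs with neuropilins for class 3 semaphorins, had 5.04, 7.32, 5.77 and 3.91 in LEC at 1428623_at, against 8.42, 8.33, 2.31 and 7.13 in BEC. BEC of mouse 3 was far below the other BEC arrays, and the groups overlapped. The logFC was -1.04 ± 1.23 (limma, adjusted p = 0.781 at the gene level), with a 95% interval of -3.70 to 1.62. Without BEC replicate 3 it was -2.45 (limma, adjusted p = 0.203), and LEC was lower in 3 of 4 mice. The second probe set, 1421232_at, was above background on 1 of 8 arrays.

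Plxna3, another class A receptor, was near background. At 1420996_at the signal was 4.63, 4.33, 1.53 and 5.15 in LEC, against 1.23, 4.09, -1.13 and 1.10 in BEC. LEC was higher in 4 of 4 mice, yet only 2 LEC arrays and 1 BEC array exceeded background, and the difference was not called (logFC 2.59 ± 1.29, limma, adjusted p = 0.394 at the gene level). With values raised to background the mean difference was 0.68. The other probe set, 1420995_at, was below background on all 8 arrays, and raising its values gave 0.56 from the background levels alone.

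The class B plexins, receptors of class 4 semaphorins, gave no call. Plxnb1, the receptor of semaphorin 4D, had 6.72, 4.29, 5.58 and 4.84 in LEC at 1435255_at, against 5.25, 5.21, 4.44 and 4.60 in BEC (logFC 0.48 ± 0.76, limma, adjusted p = 0.851 at the gene level). These values lay close to background and the groups overlapped. Its second probe set, 1435254_at, had a logFC of -0.61 ± 1.32 (limma, adjusted p = 0.904), with 3 of 8 arrays above background.

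Plxnb2, a receptor also known in epithelia, had 5.79, 5.34, 5.05 and 5.41 in LEC at its single probe set 1416683_at, against 0.85, 5.69, 7.16 and 6.42 in BEC. The LEC arrays were close together, while BEC ranged from below background in mouse 1 to values above every LEC array in mice 3 and 4. LEC averaged 5.40 ± 0.30, against an average of 5.03 ± 2.85 for BEC (SD, n = 4 each; logFC 0.37 ± 1.16, limma, adjusted p = 0.933 at the gene level). Without BEC replicate 1 the logFC was -1.03 (limma, adjusted p = 0.563), and with values raised to background it was -0.55, so this gene has no settled direction here. The BEC arrays of mice 3 and 4 were also the BEC arrays with the highest summed epithelial markers, at 14.58 and 12.64, against 9.38 and 9.73 in mice 1 and 2. The LEC array of mouse 3, with an epithelial sum of 13.42, had the lowest Plxnb2 value of the LEC arrays, 5.05. Without the 3 arrays brightest in epithelial markers (LEC of mouse 3 and BEC of mice 3 and 4) the Plxnb2 logFC was 2.25 (limma, adjusted p = 0.672). That fit kept only mice 1 and 2 of BEC, at 0.85 and 5.69, and its size rests on the 0.85, which is below background. The part of epithelial RNA in the Plxnb2 values was not tested.

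Plxnb3, a receptor of semaphorin 5A, had 5.90, 3.21, 5.21 and 4.75 in LEC at 1440813_s_at, against 4.15, 3.36, 5.33 and 4.14 in BEC. The groups overlapped widely (logFC 0.52 ± 0.85, limma, adjusted p = 0.856 at the gene level). Its other probe set, 1418750_at, was below background on all 8 arrays.

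Plxnc1, the receptor of semaphorin 7A that is best known in neurons and leukocytes, was not measurable as a difference. None of its 6 probe sets passed the filter, and 2 of them, 1423213_at and 1443433_at, were below background on all 8 arrays. The other 4 were above background on 1 or 2 arrays each. At 1443434_s_at the values were 4.90, 0.57, 2.34 and 3.82 in LEC, against -1.46, -1.74, 0.89 and -1.22 in BEC, but 1 of the 8 was above its array's background. When the filter was dropped, the same counts were called over all 22 plexin probe sets as over the 13, with 0 higher and 1 lower in LEC. Leukocyte markers, the transcripts of another cell type that uses Plxnc1, had no called gene among 8 tested of 12 listed, and their log2 sum ran from 7.11 to 9.89 in LEC and from 7.29 to 8.90 in BEC. Ptprc, the gene of CD45, did not pass the filter.

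The genes that act with plexins were read from 4 lists, with 59 of 63 genes tested. In total 5 rose and 4 fell in LEC, while 1.76% and 2.31% of all genes did so. The lists were written with earlier results of these arrays known, so their counts are not independent evidence.

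Of the ligands, 18 of 20 semaphorin genes were tested, and 3 rose, 3 fell and 12 were not called. Their median logFC was -0.66 (0.08 over all genes). Sema7a, the membrane-anchored ligand of plexin C1, had 6.89, 8.25, 6.91 and 5.08 in LEC, against 11.36, 11.21, 10.27 and 10.00 in BEC. All LEC arrays were below all BEC arrays (15.2-fold lower in LEC, logFC -3.93 ± 0.64, limma, adjusted p = 0.00248), and its second tested probe set was called in the same direction with a logFC of -3.93. The probe sets of its receptor, Plxnc1, lay mostly below background in both cell types.

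Sema4b, a membrane-bound class 4 semaphorin, had 0.70, 0.92, 5.25 and 3.87 in LEC, against 6.97, 6.02, 7.33 and 7.31 in BEC. Only 1 of the 4 LEC arrays was above background, so the signal was at least 4.90-fold lower in LEC (limma, adjusted p = 0.0354 on the values as deposited). With values raised to background, the setting that gives this bound, the call was lost (logFC -2.29, limma, adjusted p = 0.0970). In all it lost its call under 8 of the 15 alternatives that gave a value, among them also the fits without LEC replicate 1, 2 or 4 and without BEC replicate 1 or 2 (adjusted p 0.0101 to 0.593 over the alternatives). Its second tested probe set was not called (logFC -2.36). The remaining called ligands were Sema3g, at least 111-fold lower in LEC, Sema3d and Sema3a, at least 98.8-fold and 48.9-fold higher, and Sema4d, the ligand of plexin B1, at least 10.1-fold higher (limma, adjusted p up to 0.0233). Sema4d lost its call under 10 of 19 alternatives, among them the fits without LEC replicate 2, 3 or 4 and without BEC replicate 1, 2 or 4. The 2 other tested probe sets of Sema4d were not called (logFC 0.72 to 3.63), and of the 2 others of Sema3a, 1 was called higher.

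A pair of ligands that bind the products of Plxna2, Plxna4 or Plxnd1 was looked up after the values were seen. The pair was picked by hand and does not stand for all ligands of these receptors. Estimates of other semaphorins that were not called lay on both sides of 0, such as Sema3c (logFC -2.05), Sema6b (-0.56) and Sema3f (0.47). Sema6a, a ligand of plexin A2 and plexin A4, had 10.67, 10.13, 10.15 and 9.86 in LEC, against 8.92, 9.24, 8.49 and 8.56 in BEC. The groups did not overlap, but the 2.65-fold difference missed the threshold (logFC 1.41 ± 0.39, limma, adjusted p = 0.0643). The 2 other tested probe sets of Sema6a were not called (logFC 1.21 to 2.23). Sema3e, a ligand of plexin D1, had 4.66, 3.50, 4.43 and 4.02 in LEC, against 0.72, -0.08, 3.68 and 3.48 in BEC (logFC 2.20 ± 1.09, limma, adjusted p = 0.390), with 4 of the 8 arrays above background.

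Of 10 co-receptor genes, 9 were tested, with 1 higher, 1 lower and 7 not called (median logFC -0.49). Both called genes are neuropilins: Nrp1 was at least 82.7-fold lower in LEC (limma, adjusted p = 8.56e-05), and Nrp2 was 3.19-fold higher (limma, adjusted p = 0.0394, and 7.91e-04 to 0.271 over the alternatives). The Nrp2 call was lost without LEC replicate 1, 2 or 4 and without BEC replicate 1, 2 or 3. The 3 other tested probe sets of Nrp2 were not called (logFC 1.56 to 2.84), whereas the 3 others of Nrp1 were called lower. Kdr, the VEGF receptor 2 gene, had 10.38, 11.27, 10.41 and 11.17 in LEC, against 12.40, 12.13, 12.02 and 11.28 in BEC. The groups did not overlap, and the difference missed the threshold (logFC -1.15 ± 0.33, limma, adjusted p = 0.0735).

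Kdr was also among the 3 genes whose pattern over the 8 arrays was closest to that of Plxnd1. After each gene was centred on its own mean, the root-mean-square difference from Plxnd1 was 0.16 for Myo1h, a class I myosin, 0.29 for Kdr and 0.31 for Pkp4, a plakophilin of cell junctions. For the called Plxna2 probe set the same search was added after seeing the data. It gave Itprid2 (0.34), the basement membrane collagen gene Col4a2 (0.35) and the ephrin receptor gene Epha4 (0.35).

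Of the GTPases that plexins bind or act on and their regulators, 18 of 19 genes were tested and none was called (median logFC 0.05). At an unadjusted p under 0.05 (limma) there were 3 of the 18, where 14.4% of all genes passed, so this count is no sign of a difference.

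Of 14 effectors and adaptors, all tested, 1 rose and 0 fell in LEC (median logFC 0.73). The gene that rose was Mical2, which encodes a monooxygenase that takes actin filaments apart and belongs to a family that binds class A plexins. It had 10.68, 10.78, 9.18 and 9.68 in LEC, against 6.15, 5.30, 4.80 and 7.24 in BEC. All LEC arrays were above all BEC arrays (18.5-fold, logFC 4.21 ± 0.64, limma, adjusted p = 0.00158). The call held under 19 of 19 alternatives, whereas the second tested probe set of Mical2 had a logFC of 3.03 and was not called. Mical1 went the other way without passing the test (logFC -2.65 ± 1.19, limma, adjusted p = 0.325), and Dpysl2, the collapsin response mediator CRMP2, had a logFC of 0.84 ± 0.25 (limma, adjusted p = 0.0906).

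**Figure D4:**
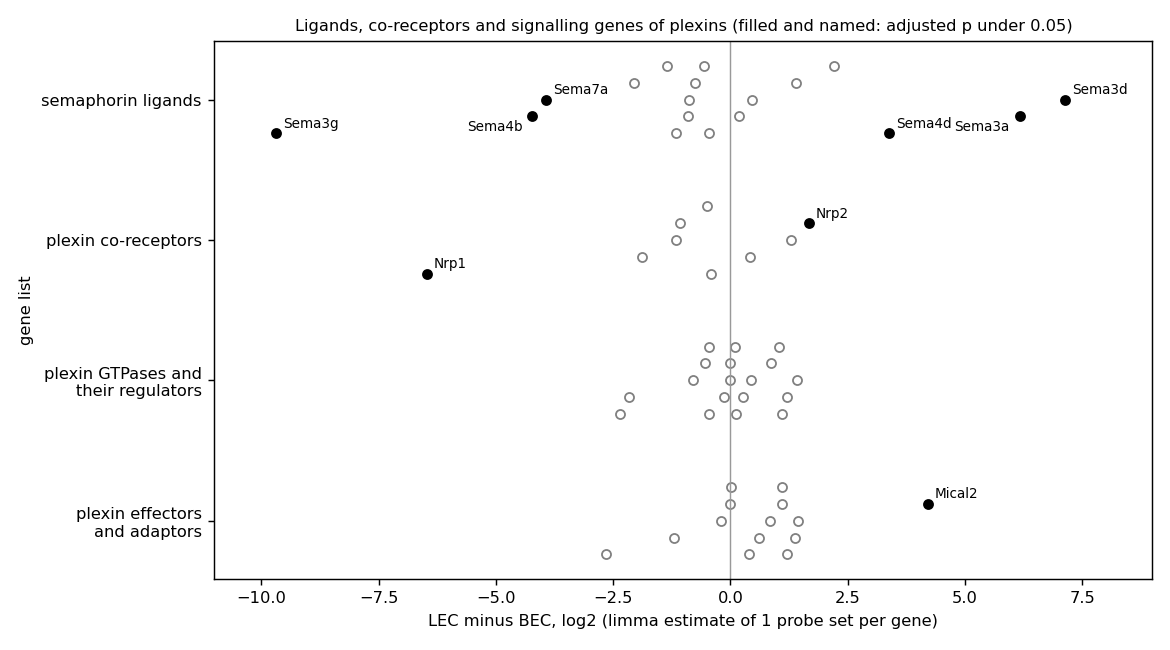
Log2 difference, LEC minus BEC (horizontal axis, limma's estimate), for the tested genes of the 4 lists (rows), 1 point per gene, filled and named where the adjusted p was under 0.05. Called semaphorins lie on both sides of 0, the 18 GTPase genes hold no filled point, and Mical2 at 4.21 is the filled effector.

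Directions of small differences depend on the scaling of the arrays. With equal array medians the median logFC of all genes was -0.20, and with equal hybridisation controls -0.31, against 0.08 as deposited, and the calls over all genes were 162 higher and 336 lower, and 123 higher and 280 lower, against 234 and 306. The Plxna2 call held under both scalings and under quantile normalization.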

How the data were processed

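Total RNA of sorted cells was amplified and hybridised to single-colour arrays. The deposited table holds log2 values, and MAS5, which makes 1 signal per probe set, is named in the submitters' processing notes, with no version. The 2% trimmed mean of the linear signal was 100.0 on every array, while array medians ran from 3.85 to 4.75. Symbols came from the platform annotation of 2016, updated through gene numbers to RefSeq (34945 probe sets with 1 gene, 932 with several, 9160 with none, 64 controls).

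Probe sets above the 40th percentile of their array on at least 4 of 8 arrays entered limma 3.58.1 (R 4.3.3; lmFit, eBayes with an intensity trend, 6 residual and 7.35 prior degrees of freedom). The model held the cell type alone. Two-sided p-values were adjusted by Benjamini-Hochberg over all 13259 genes (the probe set with the highest mean per gene) or all 28838 probe sets, and genes were called under 0.05. Background is the 95th percentile of 27 Bacillus subtilis controls. Bounds ("at least") use values raised to it, and they allow for unmeasured low values but not for sampling error. The number of arrays limits the precision.

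LEC and BEC of 1 number come from 1 mouse, per the series design. Same-mouse deviations from the group means correlated at 0.142, 0.0776, 0.181 and 0.0510. The members and lists were chosen with earlier results of these data known. The text names all 9 plexins with every probe set, each called gene of a list (or the 3 smallest p-values where fewer were called, except among the GTPases), and the 3 genes nearest to Plxnd1. The GTPases are given by counts alone, and a gene among them is not reported here.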

Additional observations from a re-analysis of the deposited data

Results flagged for a closer look

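Among the 74 groups of 4 arrays examined, 6 held 1 array far from the other 3, where chance flags about 1 in 20 groups (Dixon's test). The groups came from 22 plexin probe sets and 15 of genes of the 4 lists, each in LEC and in BEC. The 15 include GTPase genes that are given above by counts alone, and leave out Sema6a and Sema3e. LEC of mouse 1 was high at Plxna2 1429772_at, at 11.74 where the other LEC arrays had 8.48 to 8.58, and at Sema3d 1453148_at, at 11.74 where the others had 9.68 to 9.95. LEC of mouse 4, the male, was high at Plxna4 1441371_at, at 7.69 against 5.80 to 6.01, and low at Plxnc1 1423213_at, at -1.60 against 1.97 to 2.30, where all of these values are below background. BEC of mouse 3 was low at Plxna4 1457840_at, at 1.30 against 4.22 to 4.70. BEC of mouse 4 was low at Plxnd1 1451475_at, at 8.07 against 8.75 to 8.89. The causes of these values were not tested.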

How the results depend on the processing

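The count of plexin genes called higher in LEC was 0 under all 19 alternatives run, and that called lower was 0 under all but the fit without LEC replicate 1 (0 to 1 when each array was left out). The count of plexin probe sets called lower was 0 without an intensity trend, without both arrays of the male mouse and without the 3 arrays bright in epithelial markers, and 0 to 2 when each array was left out. Leaving out the male pair and the epithelium-bright arrays was chosen after seeing the data. Plxna2 1455037_at then had a logFC of -2.25, -2.48 and -2.14 (limma, adjusted p = 0.0730, 0.0747 and 0.263), and -2.44 to -1.99 with each array left out. With the mouse as a replicate block its logFC was -2.25 with limma adjusted p = 0.0288, and the block changed no call of a plexin or a named gene. Plxnb2 turned to -0.020 with equal hybridisation controls and -0.55 with values raised to background (-1.03 to 1.08 with each array left out), and was 2.25 without the epithelium-bright arrays. Raising values to background turned Plxna4 1457840_at to 0.36 (-1.51 to 0.53 with each array left out) and Plxnb1 1435254_at to 0.19 (-1.15 to 0.22), and the mean of all probe sets turned Plxnb1 to -0.063. The count of co-receptors called higher was 0 with equal array medians, equal hybridisation controls, quantile normalization, no intensity trend, no male pair and no epithelium-bright arrays (0 to 1 with each array left out), and that called lower was 2 with values raised to background (1 to 2). The count of GTPase genes called lower was 1 with the mean of all probe sets. Semaphorins called lower were 1 without the male pair and 1 without the epithelium-bright arrays (1 to 3 with each array left out), and those called higher were 1 without the epithelium-bright arrays. Effectors called higher were 2 without the epithelium-bright arrays (1 to 2 with each array left out). Over all genes, 234 rose and 306 fell, against 90 and 125 without the male pair, 74 and 55 without the epithelium-bright arrays, 164 to 318 lower and 136 to 197 higher with each array left out. The settings with fewer arrays also have less power. The filter still asked for 4 arrays in them. A gene above it in 1 cell type only could thus not enter the fit once that type lost an array. Sema3g had a value in 13 of the 19 alternatives and in 4 of the fits with 1 array left out, and it was called in all 13. A lower count can therefore hold genes that were not tested. Other causes were not tested.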
